A study of Mus musculus with 8 samples.

Results

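Genes that make, store and burn fatty acids were followed in mouse prostate epithelium of 2 genotypes, before and after androgen deprivation. The 38 members, among 55335 genes in the files, were chosen by gene symbol: 19 act in synthesis and desaturation, 11 in storage and lipolysis, and 8 in mitochondrial oxidation. Each of the 38 matched 1 Ensembl identifier. FPKM scales fragment counts by gene length and library size, so levels of different genes can be set side by side. A minimum of 1 FPKM in 2 or more libraries left 36 members to test. Mlxipl, which encodes the carbohydrate-sensing factor ChREBP, and Cd36, a fatty acid uptake receptor, stayed below that level and were not tested.

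The study profiled RNA of cells sorted as positive for EpCAM and CD24a and low for CD49f, in 8 libraries. PP sham mice (3.5 months) carried the prostate genotype that all groups share, and PPK sham mice (3.5 months) carried Kmt2cPC-/- in addition. PP ADT and PPK ADT mice (6.5 months) had the same respective genotypes and received ADT, the usual abbreviation of androgen deprivation therapy. The labels do not say how ADT was done, or which promoter drove the deletions. Each group held 2 libraries, and the labels do not say that these came from separate animals, so p-values measure only the spread between libraries. ADT and age changed together and cannot be told apart.

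Kmt2c, which encodes a histone methyltransferase of enhancers, measured 13.3 and 13.9 FPKM in PP sham, 8.67 and 8.15 in PPK sham, 10.3 and 9.33 in PP ADT, and 6.60 and 6.36 in PPK ADT. It was lower in PPK than in PP at both stages, without overlap, and was not absent. The sorted cells held abundant Epcam (310 to 565 FPKM) and Cd24a (316 to 551 FPKM) in all 8 libraries. The PPK ADT libraries stood apart in lineage genes. Krt5, a keratin of basal cells, was read at 3242 and 3243 FPKM there and at 21.0 to 96.8 in the other 6 libraries, and Krt10, a keratin of suprabasal skin, at 1222 and 1228 against 0.930 to 7.95.

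Cells make fatty acids from citrate. ATP citrate lyase (Acly) releases acetyl-CoA, acetyl-CoA carboxylase (Acaca, Acacb) turns it into malonyl-CoA, and fatty acid synthase (Fasn) builds palmitate, which elongases (Elovl genes) lengthen and desaturases (Scd and Fads genes) bend. Acyl-CoA ligases (Acsl genes) then activate fatty acids for storage as triglyceride in lipid droplets, or for carnitine-dependent import and beta-oxidation in mitochondria. SREBP-1, encoded by Srebf1, is the main transcription factor of the synthesis genes, and in prostate epithelium androgen receptor signalling is known to raise them.

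In sham mice, synthesis genes were lower in PPK than in PP. Of the 18 synthesis members tested, 11 fell, 0 rose and 7 did not pass, where passing means a limma adjusted p under 0.05 over all 14000 genes tested. Over all genes, 14.9% were called lower and 13.7% higher in that comparison. The median log2 fold change of the 18 was -0.40, against -0.02 over all genes. Log2 fold changes here are differences of log2(FPKM + 1), which understate changes of low genes, and are given ± SE. Over all 36 members, 2 were higher and 16 lower (28.6% of all genes were called). No member reached 2-fold on that scale in sham mice, where 3.68% of all genes did, 1.96% upwards and 1.72% downwards.

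In ADT mice the direction turned. Of the same 18 synthesis members, 10 rose, 4 fell and 4 did not pass in PPK against PP, with a median of 0.43 against 0.05 over all genes. Of all genes, 32.5% were called higher and 27.1% lower. At least 2-fold changes were found in 5 of the 10 (9.91% of all genes were called higher at that size) and in 2 of the 4 (7.93% lower). Over all 36 members, 16 rose and 12 fell (59.6% of all genes were called), 7 and 5 of them by at least 2-fold (17.8% of all genes).

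**Figure D1:**
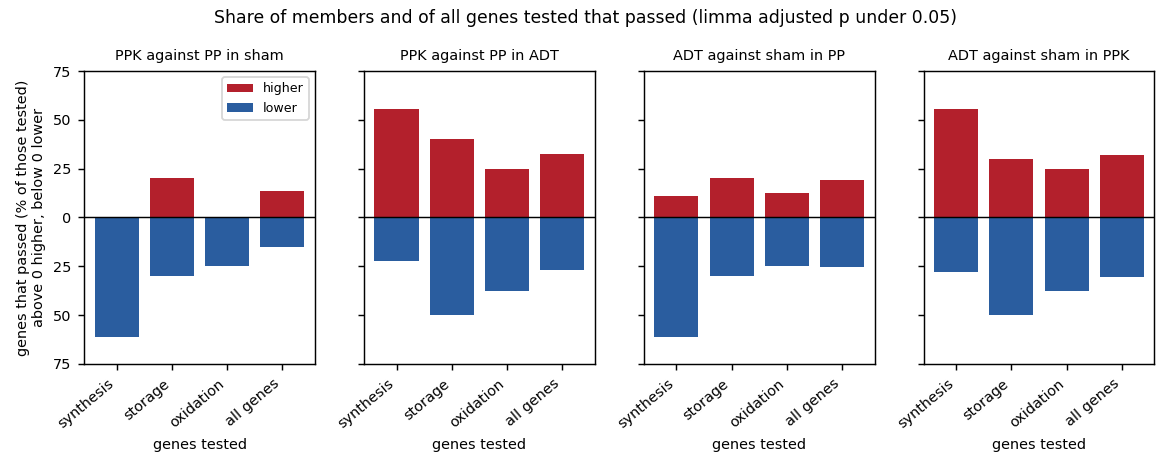
Bars give the share of tested genes that passed (limma adjusted p under 0.05), higher above the 0 line and lower below it, for the 18 synthesis, 10 storage and 8 oxidation members and for all 14000 genes, in 4 comparisons. The synthesis bar lies mostly below 0 for PPK against PP in sham (11 lower, 0 higher) and for ADT in PP (11 lower, 2 higher), and mostly above 0 in the other 2 comparisons.

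Fasn measured 24.6 and 22.8 FPKM in PP sham, 16.6 and 16.7 in PPK sham, 14.0 and 14.3 in PP ADT, and 33.6 and 34.0 in PPK ADT. No 2 groups overlapped, with PPK ADT highest and PP ADT lowest. The PPK against PP log2 fold change of Fasn (chr11:120805846-120824547, GRCm38) was -0.48 ± 0.046 at the sham stage and 1.20 ± 0.046 at the ADT stage (limma adjusted p = 0.000533 and 2.08e-06). Acly, which feeds it with acetyl-CoA, was likewise highest in PPK ADT, and its PPK sham and PP ADT libraries overlapped. Its levels were 42.8 and 43.7 FPKM in PP sham, 31.5 and 29.3 in PPK sham, 29.8 and 29.9 in PP ADT, and 59.5 and 59.5 in PPK ADT. Its log2 fold changes were -0.49 ± 0.041 and 0.97 ± 0.041 (limma adjusted p = 0.00029 and 3.09e-06).

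The 2 carboxylase genes moved apart. Acaca (chr11:84129672-84401651), whose cytosolic product supplies Fasn, measured 2.05 and 2.40 FPKM in PP sham, 2.69 and 2.54 in PPK sham, 2.58 and 2.53 in PP ADT, and 8.34 and 8.14 in PPK ADT. Only the PPK ADT libraries were high, and the other 3 groups lay between 2.05 and 2.69. Acacb (chr5:114146535-114250761), whose product sits at mitochondria and restrains fatty acid import, measured 2.56 and 2.63 FPKM in PP sham, 2.63 and 2.20 in PPK sham, 4.40 and 3.72 in PP ADT, and 0.740 and 0.840 in PPK ADT. Here PPK ADT was lowest and PP ADT highest, without overlap. In PPK against PP after ADT, Acaca rose by 1.38 ± 0.080 and Acacb fell by 1.50 ± 0.10 on the log2 scale (limma adjusted p = 1.32e-05 and 3.27e-05). Neither passed in sham mice (0.17 ± 0.080 and -0.08 ± 0.10).

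Among the 3 elongase members, Elovl6, which extends palmitate to stearate, changed most in ADT mice. It measured 1.38 and 1.54 FPKM in PP sham, 1.27 and 1.18 in PPK sham, 1.26 and 0.981 in PP ADT, and 7.43 and 7.25 in PPK ADT. The PPK ADT pair was far above the other 6 libraries (1.98 ± 0.093, limma adjusted p = 5.26e-06). Elovl1, an elongase of saturated very long chains, rose as well (0.45 ± 0.066), and fell in sham mice only without PP sham replicate A (-0.28, limma adjusted p = 0.0312). Elovl5, an elongase of polyunsaturated chains, fell in sham mice (-0.54 ± 0.062), and did not pass in ADT mice (-0.12 ± 0.062), except without PPK ADT replicate B (-0.20, limma adjusted p = 0.0463).

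Of the 4 desaturase members, 3 turned direction between the stages and Scd1 did not. Fads2 and Fads1, the delta-6 and delta-5 desaturases of polyunsaturated fatty acids, were both lower with the Kmt2c deletion in sham mice and higher with it in ADT mice. Fads2 measured 8.99 and 10.7 FPKM in PP sham, 5.14 and 3.99 in PPK sham, 3.24 and 3.43 in PP ADT, and 7.81 and 7.48 in PPK ADT. Fads1 stood at 1.35 and 1.60, 0.876 and 0.882, 0.434 and 0.446, and 2.02 and 1.78 FPKM in that order of groups. The sham difference of Fads1 (-0.40 ± 0.092) was lost without a filter on low values (limma adjusted p = 0.0676), without PP sham replicate B (0.107), and without PPK sham replicate A (0.0734) or B (0.0701). Scd1, a delta-9 desaturase that makes oleate, had the highest mean level of the synthesis members over the 8 libraries, although Scd2 was slightly higher in PPK ADT. Scd1 was lower in PPK at both stages, at 61.5 and 61.6 against 47.6 and 45.6 FPKM in sham and 75.7 and 76.0 against 60.2 and 60.0 in ADT mice. Its paralog Scd2 stood at 46.8 and 50.6 FPKM in PP sham, 37.1 and 35.5 in PPK sham, 46.5 and 45.1 in PP ADT, and 61.2 and 60.4 in PPK ADT. The difference of genotype effects between ADT and sham mice was 0.82 ± 0.066 for Scd2 (limma adjusted p = 9.13e-05) and 0.06 ± 0.044 for Scd1 (0.279).

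Acyl-CoA ligases also split. Acsl3, a ligase of the endoplasmic reticulum and lipid droplets, measured 37.2 and 35.5 FPKM in PP sham, 18.7 and 20.4 in PPK sham, 19.4 and 17.9 in PP ADT, and 35.8 and 33.7 in PPK ADT. The PP sham and PPK ADT libraries were both high, and the 2 other groups were both low and overlapped. Acsl1, a ligase of both storage and oxidation, had the same low and high groups but was highest in PPK ADT (5.35 and 5.15, 2.82 and 3.41, 2.32 and 2.81, 8.47 and 8.33 FPKM in the same order). Acsl4, which prefers arachidonate, went the other way in ADT mice, at 13.8 and 12.1 FPKM in PP and 7.25 and 7.87 in PPK (-0.70 ± 0.074). Acsl5 did not pass in either genotype comparison (-0.17 ± 0.056 and -0.15 ± 0.056), although in ADT mice it passed with median-of-ratios scaling (limma adjusted p = 0.0244) and without either PPK sham library (0.0438 and 0.044).

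Me1, the cytosolic malic enzyme that supplies NADPH for synthesis, fell at both stages. It measured 37.9 and 36.1 FPKM in PP sham, 24.6 and 24.0 in PPK sham, 27.4 and 27.5 in PP ADT, and 8.36 and 8.02 in PPK ADT. The PPK ADT libraries were lowest and no 2 groups overlapped (log2 fold change -1.63 ± 0.043 in ADT mice, limma adjusted p = 4.02e-07). Acss2, which makes acetyl-CoA from acetate, fell in sham mice (-0.55 ± 0.075) and did not pass in ADT mice (-0.20 ± 0.075, limma adjusted p = 0.0537), a call gained with a pseudocount of 0.1, without a mean-variance trend or with either scaling (0.0138 to 0.0478). Srebf1 (chr11:60199089-60222581) was nearly level. Its levels were 26.0 and 25.4 FPKM in PP sham, 24.1 and 25.6 in PPK sham, 25.1 and 24.9 in PP ADT, and 24.4 and 24.2 in PPK ADT. Its PPK against PP log2 fold change was -0.05 ± 0.042 in sham and -0.04 ± 0.042 in ADT mice (limma adjusted p = 0.437 and 0.419).

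**Figure D2:**
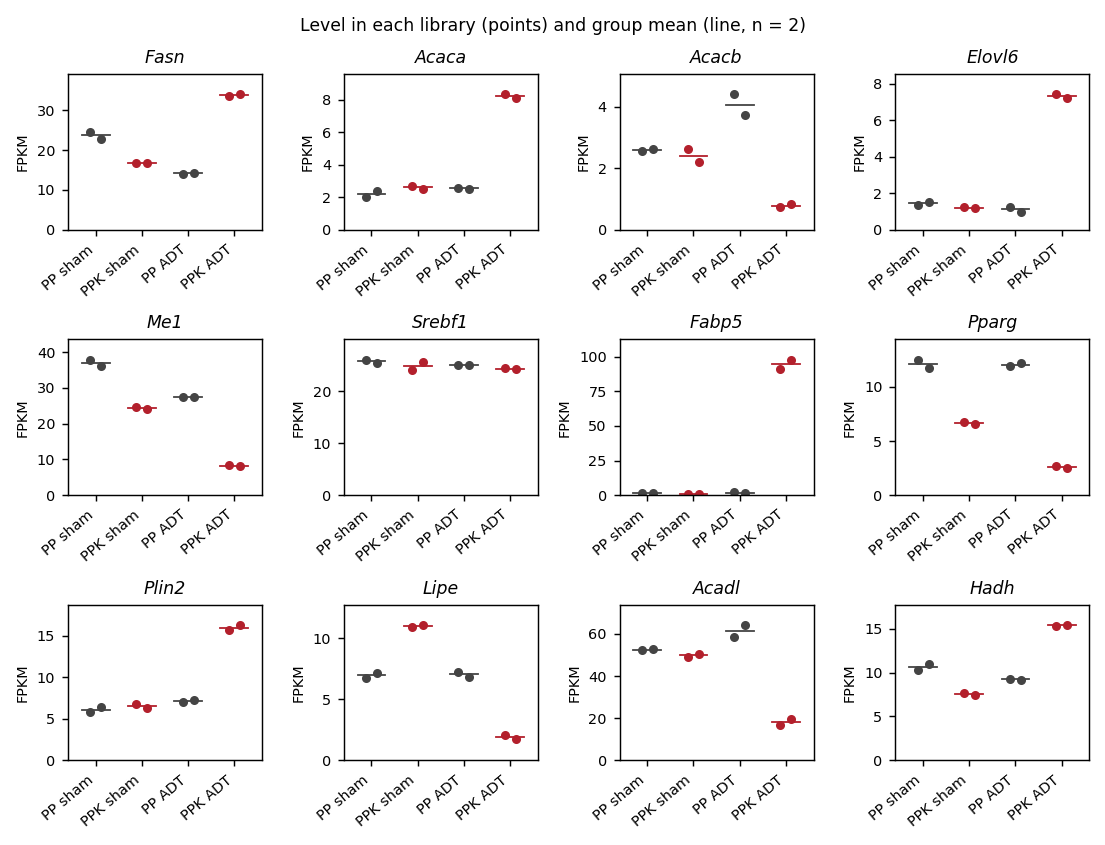
FPKM of 12 members (y axes, from 0) in the 4 groups (x axes), with 1 point per library and a line at the group mean (n = 2). Fasn, Acaca, Elovl6, Fabp5, Plin2 and Hadh are highest in PPK ADT, Acacb, Me1, Pparg, Lipe and Acadl are lowest there, and Srebf1 stays between 24.1 and 26.0 FPKM.

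Of the 18 synthesis members, 7 passed in opposite directions at the 2 stages, lower in PPK sham and higher in PPK ADT: Fasn, Acly, Scd2, Fads1, Fads2, Acsl1 and Acsl3. Over all genes tested, 4.93% did so. No synthesis member passed the other way round. The promoters of 5 of these 7 are in the RefSeq table (GRCm38.p6) and are shown because these genes moved together. Each line gives the 250 bases before the start site, 5′ to 3′ on the gene's strand. Capitals mark matches, on either strand, to a sterol regulatory element bound by SREBP (TCACNCCAC), the CCAAT box bound by NF-Y (CCAAT), or an E-box (CACGTG). RefSeq gives 2 starts for Acsl1, and the window of the downstream one, which holds matches, is printed.
Fasn: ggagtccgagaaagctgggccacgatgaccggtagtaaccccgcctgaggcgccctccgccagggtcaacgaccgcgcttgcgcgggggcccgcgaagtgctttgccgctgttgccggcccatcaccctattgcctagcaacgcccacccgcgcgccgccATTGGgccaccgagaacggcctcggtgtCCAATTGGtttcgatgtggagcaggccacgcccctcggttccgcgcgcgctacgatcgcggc
Acly: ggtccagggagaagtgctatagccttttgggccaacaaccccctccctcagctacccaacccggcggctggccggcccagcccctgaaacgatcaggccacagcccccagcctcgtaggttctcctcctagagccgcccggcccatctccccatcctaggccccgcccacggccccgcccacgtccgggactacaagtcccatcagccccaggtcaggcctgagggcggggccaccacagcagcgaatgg
Fads2: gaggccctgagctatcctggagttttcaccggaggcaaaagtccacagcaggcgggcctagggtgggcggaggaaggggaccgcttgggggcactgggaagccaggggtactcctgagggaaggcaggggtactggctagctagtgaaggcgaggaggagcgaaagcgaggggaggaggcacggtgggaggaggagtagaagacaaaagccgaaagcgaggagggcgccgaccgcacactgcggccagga
Acsl1: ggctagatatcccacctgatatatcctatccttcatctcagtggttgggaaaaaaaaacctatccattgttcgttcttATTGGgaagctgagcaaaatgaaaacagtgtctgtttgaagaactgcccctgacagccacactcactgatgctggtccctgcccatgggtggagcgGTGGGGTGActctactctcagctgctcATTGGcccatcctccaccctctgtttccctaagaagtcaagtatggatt
Acsl3: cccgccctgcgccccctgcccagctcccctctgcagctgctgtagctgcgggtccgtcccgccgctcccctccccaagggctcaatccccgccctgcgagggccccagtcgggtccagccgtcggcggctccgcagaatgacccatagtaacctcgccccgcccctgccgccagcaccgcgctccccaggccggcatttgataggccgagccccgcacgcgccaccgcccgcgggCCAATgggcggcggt
Their positions are chr11:120824548-120824797 (minus strand) for Fasn, chr11:100528001-100528250 (minus) for Acly, chr19:10101504-10101753 (minus) for Fads2, chr8:46490716-46490965 (plus) for Acsl1 and chr1:78657575-78657824 (plus) for Acsl3.

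The CCAAT box was found 3 times in Fasn, starting 90, 62 and 59 bases before the start, where the last pair overlap. It was found 2 times in the printed Acsl1 window and 1 time in Acsl3. The Acsl1 window also held the only sterol regulatory element among the 5 genes, starting 76 bases before the start. No letters of the 3 motifs matched in Acly or Fads2. Among the 16 synthesis members with a promoter in the table, 11 had a CCAAT box, as did 37.5% of all 27025 symbols in it. The sterol element was in 2 of the 16 (Acsl1 and Mlxipl) and 1.22% of all symbols, and the E-box in 2 of the 16 and 6.86%. Of the 8 storage and 8 oxidation members with a promoter, 4 and 2 had a CCAAT box, and 0 and 0 the sterol element. These counts describe letters in one window and are not tested.

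Storage and lipolysis genes went in both directions. In the sham comparison of PPK with PP, 2 of the 10 tested were higher, 3 lower and 5 not called (median -0.05), where 28.6% of all genes passed. In ADT mice 4 rose, 5 fell and 1 did not pass (median 0.07), where 59.6% of all genes passed.

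Fabp5 (chr3:10012548-10016607), the epidermal fatty acid binding protein, had the largest genotype effect of the 36 in ADT mice. It measured 1.46 and 1.51 FPKM in PP sham, 0.611 and 0.692 in PPK sham, 1.99 and 1.77 in PP ADT, and 91.4 and 97.9 in PPK ADT. The PPK ADT pair stood far above all others, and PPK sham was lowest. Its PPK against PP log2 fold change was 5.06 ± 0.073 in ADT mice (limma adjusted p = 4.92e-08) and -0.59 ± 0.073 in sham mice (0.00162). How reads shared with similar gene copies were assigned is not known here, and the level of Fabp5 is uncertain in that respect. Many keratinocyte markers, not all, were high in the same 2 libraries. Of 11 listed, 9 reached 1 FPKM, and Lor and Dsg1a reached at most 0.391 and 0.107. The sum of the 11 was 332 to 580 FPKM in the other 6 libraries, most of it Sprr1a (302 to 538). It was 2226 and 2262 FPKM in PPK ADT, where Krt10 made up most of it (1222 and 1228) and Sprr1a stood at 519 and 545. Basal markers summed to 5815 and 5884 FPKM there, against 876 to 1372 elsewhere, with 8 of 8 reaching 1 FPKM. Luminal markers summed to 4645 and 4644 FPKM against 8025 to 10150, with 11 of 11 reaching it. The part of this lineage shift in the changes of the members was not tested.

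Pparg (chr6:115360951-115490399), the nuclear receptor that drives lipid storage programmes, fell in PPK at both stages. It measured 12.5 and 11.8 FPKM in PP sham, 6.77 and 6.61 in PPK sham, 11.9 and 12.2 in PP ADT, and 2.68 and 2.48 in PPK ADT. The 2 PP groups overlapped, PPK sham was lower and PPK ADT lowest. The log2 fold change was -0.77 ± 0.060 in sham and -1.86 ± 0.060 in ADT mice (limma adjusted p = 0.000215 and 9.17e-07). Plin2, which coats lipid droplets, stood at 5.83 and 6.41, 6.81 and 6.30, 7.06 and 7.31, and 15.7 and 16.3 FPKM in PP sham, PPK sham, PP ADT and PPK ADT. Only PPK ADT was high (1.06 ± 0.066 against PP ADT).

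The lipases of stored triglyceride passed in opposite directions at the 2 stages. Lipe (chr7:25379527-25398710), hormone-sensitive lipase, measured 6.75 and 7.16 FPKM in PP sham, 10.9 and 11.1 in PPK sham, 7.28 and 6.79 in PP ADT, and 2.08 and 1.78 in PPK ADT. PPK sham was highest and PPK ADT lowest, and the PP groups overlapped. Its log2 fold change was 0.59 ± 0.074 in sham and -1.46 ± 0.074 in ADT mice (limma adjusted p = 0.00166 and 7.48e-06). Pnpla2, adipose triglyceride lipase, rose in sham mice (28.4 and 27.7 against 17.9 and 21.8 FPKM) and fell in ADT mice (13.6 and 13.2 against 18.8 and 18.1). Lipe and Pnpla2 were the only members that were higher in PPK sham and lower in PPK ADT, a pattern of 6.25% of all genes.

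Enzymes of triglyceride assembly differed among themselves. Agpat2, an acyltransferase of the glycerol backbone, dropped from 7.02 and 6.96 FPKM in PP ADT to 3.39 and 2.73 in PPK ADT (-0.98 ± 0.14). Its sham groups overlapped. Dgat1 and Dgat2 both catalyse the last step. Dgat1 rose in ADT mice (8.21 and 7.71 against 5.38 and 5.43 FPKM, 0.48 ± 0.074), whereas Dgat2 fell in sham mice (12.2 and 10.9 against 21.3 and 20.0 FPKM, -0.79 ± 0.073). In ADT mice Dgat2 was also lower (-0.24 ± 0.073), a call lost without PP ADT replicate B (limma adjusted p = 0.142), without PPK ADT replicate A (0.0644) or B (0.123), and without a filter (0.0564). Lpin1, a phosphatidate phosphatase, rose in ADT mice (0.55 ± 0.079). Gpam, the mitochondrial acyltransferase of the first step, did not pass in either (-0.40 ± 0.14 and 0.38 ± 0.14), although it passed in ADT mice with a replicate block (limma adjusted p = 0.0395) and without PP ADT replicate B (0.00908), and in sham mice without PP ADT replicate A (0.0313) or B (0.0319). Cd36 stood at 0 in the PP sham pair and at 0.537 and 0.704 FPKM in the PPK ADT pair.

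Markers of fat cells were at 0 or low. Adipoq, Plin1, Lep and Retn were listed at 0 in all 8 libraries, and 4 of 10 adipocyte markers reached 1 FPKM. These 4, Cidec, Cfd, Adrb3 and Slc2a4, did so only in the PPK ADT pair, at 1.10 to 2.51 FPKM. The summed level of the 10 was 0.651 to 1.16 FPKM in 6 libraries and 6.24 and 7.28 in PPK ADT. Of 12 macrophage markers 7 reached 1 FPKM, and Marco was at 0 throughout. Of these 7, 6 rose and 1 fell in PPK against PP in sham mice, where 28.6% of all genes passed. In ADT mice 1 rose, 5 fell and 1 did not pass, where 59.6% of all genes passed. The difference of genotype effects (ADT minus sham) passed as negative for all 7, and for 22.8% of all genes. From PP sham to PPK ADT, which differ in genotype, ADT and age, the 7 did not move alike. In those means, Cd14 and Mrc1 were lower in PPK ADT, and Cd68, C1qa, C1qb, C1qc and Lyz2 were higher. Cd14 made up most of the sum of the 12 outside PPK ADT (41.3 to 101 FPKM), and was at 16.4 and 13.6 there. The sums were 65.5 and 65.3 FPKM in PP sham, 133 and 135 in PPK sham, 136 and 146 in PP ADT, and 54.4 and 53.5 in PPK ADT. Sums of 8 fibroblast markers, of which 6 reached 1 FPKM, were 5.96 and 6.34, 18.7 and 18.3, 4.78 and 4.72, and 30.8 and 31.5 FPKM in that order of groups. Sums of 9 endothelial markers (2 reached 1 FPKM) were at most 5.30. Of 8 sebocyte markers 4 reached 1 FPKM and Awat1 was at 0 throughout. Their sums were 39.7 and 41.9, 28.3 and 34.2, 53.2 and 66.7, and 73.6 and 74.4 FPKM. Mgst1 made up most of each sum, but was lower in PPK ADT (44.0 and 46.9 FPKM) than in PP ADT (50.7 and 64.6). Krt79, named here after its values were seen, was at 25.7 and 23.4 FPKM in PPK ADT and at 0.169 to 0.721 in the other 6 libraries. The part of these cells in the members' changes was not tested, and in such pooled cells more cells of a type and more RNA per cell cannot be told apart.

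Oxidation genes passed about as often as genes in general. In sham mice 2 of 8 fell, 0 rose and 6 did not pass (median -0.07), where 28.6% of all genes passed. In ADT mice 2 rose, 3 fell and 3 did not pass (median 0.07), where 59.6% of all genes passed. Acadl (chr1:66830839-66863277), long-chain acyl-CoA dehydrogenase, had the largest change of the 8 in ADT mice. It measured 52.2 and 52.7 FPKM in PP sham, 49.2 and 50.7 in PPK sham, 58.4 and 64.3 in PP ADT, and 16.8 and 19.5 in PPK ADT. Only the PPK ADT libraries were low (-1.71 ± 0.075 against PP ADT, limma adjusted p = 3.86e-06). Acadvl, which acts on very long chains, stayed between 22.5 and 28.7 FPKM and did not pass in either genotype comparison (-0.06 ± 0.052 and 0.09 ± 0.052). Acadm, the medium-chain enzyme, fell in ADT mice (-0.36 ± 0.077).

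Hadh (chr3:131233419-131272101), short-chain hydroxyacyl-CoA dehydrogenase, was the oxidation member that passed in opposite directions at the 2 stages. Its levels were 10.3 and 11.0 FPKM in PP sham, 7.63 and 7.40 in PPK sham, 9.28 and 9.20 in PP ADT, and 15.3 and 15.4 in PPK ADT. It was lower in PPK in sham mice (-0.45 ± 0.051) and higher in ADT mice (0.68 ± 0.051), and no 2 groups overlapped. Hadha and Hadhb, the 2 subunits of the mitochondrial trifunctional protein, changed little: Hadha stayed between 14.6 and 17.2 FPKM and Hadhb between 7.03 and 9.89. Hadha passed in ADT mice (0.17 ± 0.050), a call lost with median-of-ratios scaling (limma adjusted p = 0.0537), without PP ADT replicate B (0.104), and without PPK ADT replicate A (0.057) or B (0.0852). Cpt1a, the gate of mitochondrial import, fell in PPK at both stages, from 17.8 and 18.9 to 15.3 and 14.3 FPKM in sham and from 15.9 and 17.6 to 12.7 and 12.9 in ADT mice. The sham call (-0.30 ± 0.064) was lost without PP sham replicate B (limma adjusted p = 0.0874) or PPK sham replicate B (0.0798). Cpt2, the inner-membrane partner, overlapped between genotypes at both stages. Without PP ADT replicate A, Cpt2 passed in ADT mice (0.44, limma adjusted p = 0.0254).

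**Figure D3:**
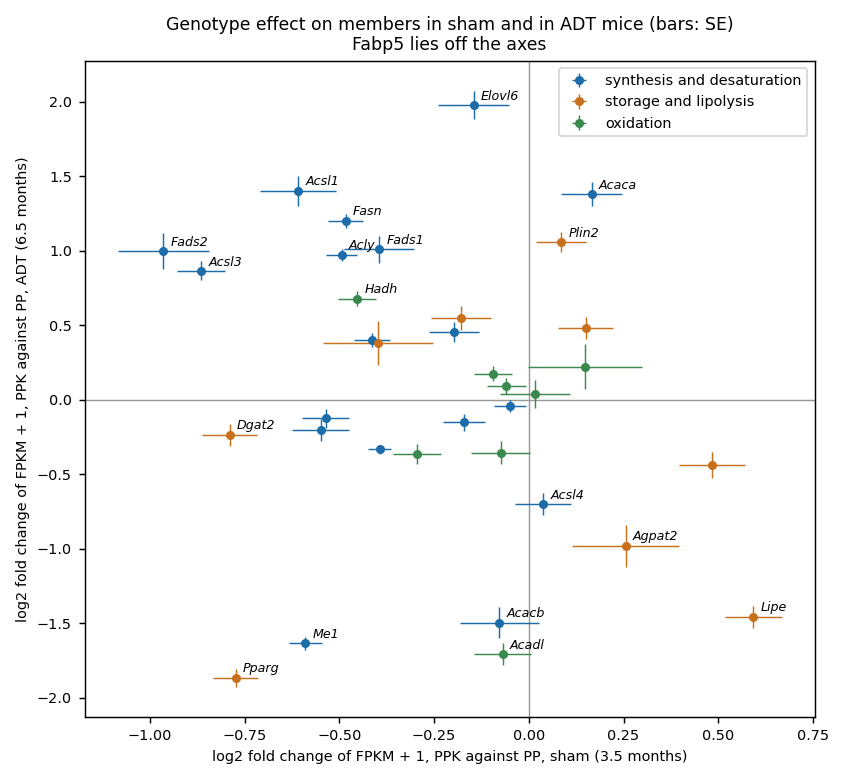
Each point is a tested member other than Fabp5, with its PPK against PP log2 fold change (of FPKM + 1) in sham mice on the x axis and in ADT mice on the y axis, and bars of 1 SE. Fasn, Acly, Fads1, Fads2, Acsl1, Acsl3 and Hadh lie at upper left (lower in sham, higher in ADT), Lipe at lower right, and Pparg and Me1 at lower left.

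The same libraries can be read as the effect of ADT with age within each genotype. These comparisons share libraries with those above and are not independent of them. In PP mice, 11 of 18 synthesis members fell, 2 rose and 5 did not pass (median -0.38). Over all genes 25.1% were called lower and 19.1% higher, 44.2% in all (median -0.07). That balance turned with scaling, from 2667 higher and 3518 lower genes to 3109 and 2937 with median-of-ratios scaling and 3006 and 2916 with quantile normalization. At least 2-fold changes were found in 0 members upwards and 2 downwards (4.29% and 4.39% of all genes, 8.67% together). On the log2(FPKM + 1) scale, Fads2 fell most among the 18 synthesis members (-1.32 ± 0.12), followed by Acsl3 (-0.93 ± 0.064). By the ratio of mean FPKM, Fads1 fell most (from 1.47 to 0.440 FPKM). Scd1 (0.30 ± 0.031) and Acacb (0.49 ± 0.10) rose. The rise of Acacb was lost without PP sham replicate A (limma adjusted p = 0.0507) or PP ADT replicate A (0.0555). In PPK mice, 10 of the 18 rose, 5 fell and 3 did not pass (median 0.49), where 31.9% of all genes were called higher and 30.7% lower, 62.6% in all. Of all 36 members, 5 rose and 6 fell by at least 2-fold (10.1% and 9.66% of all genes, 19.7% together). On the log2(FPKM + 1) scale, Elovl6 rose most (1.91 ± 0.093) and Me1 fell most (-1.46 ± 0.043) among the 18 synthesis members. By the ratio of mean FPKM, Acacb fell slightly more than Me1 (0.328 against 0.337). Fasn, Acly, Fads1, Fads2, Acsl1, Acsl3 and Hadh fell in PP and rose in PPK, as did 5.36% of all genes. Acacb alone among the members did the reverse, as did 5.79% of all genes.

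Storage genes after ADT with age showed 2 higher and 3 lower of 10 in PP, and 3 higher and 5 lower in PPK. Of all genes, 44.2% passed in PP and 62.6% in PPK. Gpam fell in PP (-1.02 ± 0.14), as did Dgat2 (-0.82 ± 0.073) and Lpin1 (-0.71 ± 0.079). Dgat1 (0.33 ± 0.074) and Plin2 (0.20 ± 0.066) were the 2 that rose. In PPK, Lipe fell by 2.03 ± 0.074 and Agpat2 by 1.42 ± 0.14 on the log2 scale, and Fabp5 rose by 5.86 ± 0.073. Pparg did not pass in PP (-0.01 ± 0.060) and fell in PPK (-1.10 ± 0.060). Of the 8 oxidation members, 1 rose and 2 fell in PP (44.2% of all genes passed), and 2 rose and 3 fell in PPK (62.6%).

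Over all members, 5 were called higher and 16 lower after ADT with age in PP (44.2% of all genes were called). The count of 5 is fragile. It was 2 without PP sham replicate A or B or without PP ADT replicate B, 3 without PP ADT replicate A, and 8 with median-of-ratios scaling. Calls lost when a single library was left out were Acacb, Dgat1, Plin2 and Acadm among the higher, and Acsl5, Cpt2 and Hadh among the lower. The rise of Plin2 (limma adjusted p = 0.0476) was lost without any one of the 8 libraries (0.0503 to 0.209).

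**Figure D4:**
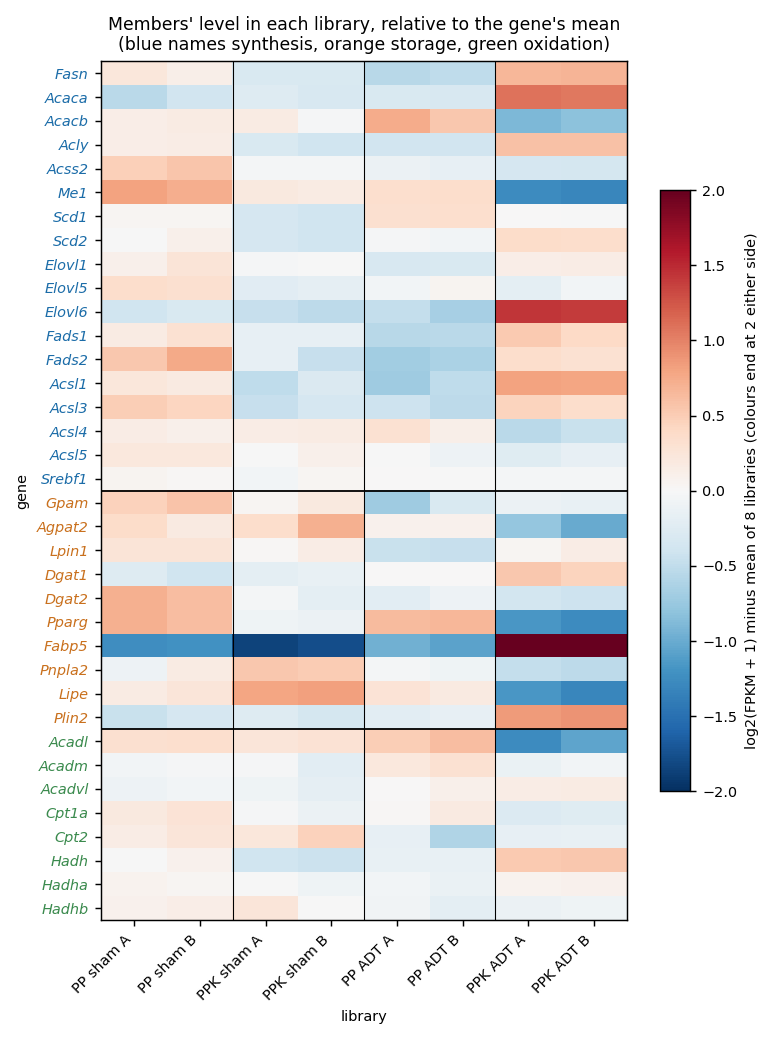
Rows are the 36 tested members, grouped as synthesis, storage and oxidation, and columns the 8 libraries. Colour gives log2(FPKM + 1) minus the gene's mean over the 8 libraries, with colours ending at 2 either side (Fabp5 exceeds this), and both libraries of a group look alike, with the PPK ADT pair standing apart in both directions.

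The genotype effect itself differed between sham and ADT mice for 28 of 36 members, 20 with a more positive effect in ADT mice and 8 with a more negative one. Over all genes 30.0% and 22.8% were called in these directions, 52.8% in all, with a median of 0.09. At least 2-fold differences were found for 10 members upwards and 6 downwards (11.3% and 9.76% of all genes, 21.0% together). The median of the 18 synthesis members was 0.73, of the 10 storage members 0.44 and of the 8 oxidation members 0.05. Among synthesis members it was at least 2-fold for 8 upwards, with Elovl6 (2.12 ± 0.13) and Acsl1 (2.01 ± 0.14) largest, and for 2 downwards, Acacb (-1.42 ± 0.15) and Me1 (-1.04 ± 0.061).

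Other genes of the pathway were taken from lists beyond the members. Of 13 genes listed as SREBP factors, their control or related regulators, 11 were tested. In PPK against PP in ADT mice 3 rose (Srebf2, Scap and Rxra) and 2 fell, including Insig2. These were 45.5% of the 11, below the 59.6% of all genes called. Srebf2, which encodes the sterol-directed SREBP-2, measured 24.2 and 23.2 FPKM in PP sham, 19.5 and 21.1 in PPK sham, 19.1 and 18.5 in PP ADT, and 37.0 and 34.2 in PPK ADT. Unlike Srebf1, it was highest in PPK ADT (0.89 ± 0.058, limma adjusted p = 2.39e-05). Scap, the escort protein of SREBPs, rose too (0.66 ± 0.069), and Insig2, which retains them in the endoplasmic reticulum, fell (-1.29 ± 0.14). Insig1 fell in sham mice (-0.57 ± 0.092) and after ADT with age in PP (-1.36 ± 0.092). It did not rise in PPK ADT as Srebf2 did. Its libraries overlapped between genotypes in ADT mice, at 11.8 and 10.2 FPKM in PP and 11.5 and 10.1 in PPK. Both PPK ADT libraries were below those of PPK sham (20.7 and 18.8).

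Of 26 further synthesis genes, 21 were tested. In PPK against PP, 2 rose and 9 fell in sham mice, and 11 rose and 4 fell in ADT mice. These were 52.4% and 71.4% of those tested, where 28.6% and 59.6% of all genes were called. Idh1, a cytosolic source of NADPH, measured 98.5 and 104 FPKM in PP sham, 53.1 and 50.7 in PPK sham, 132 and 123 in PP ADT, and 156 and 167 in PPK ADT. It fell in sham mice (-0.95 ± 0.053) and rose in ADT mice (0.34 ± 0.053). G6pdx, the first enzyme of the pentose phosphate pathway and another NADPH source, did the same (-0.47 ± 0.066 and 0.62 ± 0.066). Elovl7, an elongase, fell in ADT mice (4.73 against 21.8 FPKM in the means, -1.99 ± 0.11). Acss1, the mitochondrial acetyl-CoA synthetase, fell there as well (-1.39 ± 0.070).

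Of 35 further storage and uptake genes, 17 were tested, and 5 rose and 6 fell in sham and 9 rose and 5 fell in ADT mice. These were 64.7% and 82.4% of those tested, where 28.6% and 59.6% of all genes were called. Hilpda, a lipid droplet protein that inhibits adipose triglyceride lipase and is induced by hypoxia, measured 29.2 and 28.7 FPKM in PP sham, 10.8 and 11.1 in PPK sham, 10.3 and 11.0 in PP ADT, and 30.6 and 28.4 in PPK ADT. Its 2 low groups overlapped, as did its 2 high groups (-1.32 ± 0.054 in sham and 1.39 ± 0.054 in ADT mice, limma adjusted p = 1.7e-05 and 2.22e-06). Gpat3, an acyltransferase of triglyceride synthesis, showed the reverse, rising in sham (1.18 ± 0.11) and falling in ADT mice (-0.82 ± 0.11).

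Of 26 further oxidation genes, 23 were tested, and 1 rose and 6 fell in sham and 10 rose and 7 fell in ADT mice. The sham share, 30.4% of those tested, was near the 28.6% of all genes called. The ADT share was 73.9%, against 59.6% of all genes. Pdk4, a kinase that shuts pyruvate out of the mitochondrial fuel supply, was read at 0.421 to 0.632 FPKM in the other 6 libraries and at 11.1 and 9.75 in PPK ADT (2.92 ± 0.11). Ppargc1a, a coactivator of mitochondrial and oxidation genes, stood at 6.29 to 8.04 FPKM in those 6 libraries and at 0.915 and 0.598 in PPK ADT (-2.35 ± 0.096). Both were thus near level in 3 groups and differed in the PPK ADT pair, in opposite directions.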

How the data were processed

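Strand-specific TruSeq libraries were made from Trizol-extracted RNA, per the labels' protocols. The authors deposited 1 table of FPKM values per library. FastQC 0.11.2 and the mm10 build come from the submitters' processing notes. Which aligner, quantifier and annotation were used is not given in the sources used here. No counts are in the tables. Whole-read steps could not be recovered from low values: at most 20 of 4371 to 5320 genes under 0.3 FPKM shared the most frequent ratio between a pair of libraries. Depth is thus unknown. Summed FPKM ranged from 284015 to 333977.

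Symbols and positions came from GENCODE M21 (GRCm38, the assembly of mm10), which named 55154 of 55335 identifiers. Groups were taken from the titles. The 14000 genes that reached 1 FPKM in 2 or more libraries entered a limma 3.58.1 fit (R 4.3.3) of log2(FPKM + 1). It had 4 group means, a trend of variance on level, 4 residual and 2.4 prior degrees of freedom, and two-sided tests with Benjamini-Hochberg adjustment over all genes. Of the 36 tested members, 32 reached 1 FPKM in all 8 libraries. The members and lists were chosen with earlier results of these data known. All 38 members could be named, and from each further pathway list up to 4 genes with the smallest adjusted p in a comparison. Promoters of 32 members came from RefSeq (GRCm38.p6). The fit was tested on simulated data. Alternatives were another pseudocount (0.1), no filter, 2 scalings, a replicate block, no trend, only the groups compared, and each library left out. Python 3.11.15, pandas 2.3.3 and matplotlib 3.10.9 were used. The allele common to all groups is not reported here, and the organoid samples of the design are not analysed here.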

Additional observations from a re-analysis of the deposited data

Results flagged for a closer look

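The PPK against PP effect differed between ADT and sham mice, by limma's test of the difference itself, for 28 members. Values below are ADT effect minus sham effect, on the log2(FPKM + 1) scale, each from 2 libraries per group.

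Among synthesis genes the difference was positive for Elovl6 (2.12), Acsl1 (2.01), Fads2 (1.96), Acsl3 (1.73), Fasn (1.68), Acly (1.47), Fads1 (1.40), Acaca (1.21), Scd2 (0.82), Elovl1 (0.65), Elovl5 (0.41) and Acss2 (0.34). It was negative for Acacb (-1.42), Me1 (-1.04) and Acsl4 (-0.74).

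Among storage genes it was positive for Fabp5 (5.64), Plin2 (0.97), Gpam (0.78), Lpin1 (0.73), Dgat2 (0.55) and Dgat1 (0.33). It was negative for Lipe (-2.05), Agpat2 (-1.24), Pparg (-1.09) and Pnpla2 (-0.92).

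Among oxidation genes it was positive for Hadh (1.13) and Hadha (0.27) and negative for Acadl (-1.64). Of these 28, 4 lost the call when single libraries were left out. Acss2 and Dgat1 also lost it without a filter and with either scaling. Acss2 lost it with a pseudocount of 0.1 and with a replicate block as well (limma adjusted p = 0.0529 to 0.084 over these fits). Acss2 lost it without any one of the 8 libraries (limma adjusted p = 0.052 to 0.102). Dgat1 lost it without any one but PP sham replicate B (0.0534 to 0.101). Gpam lost it without PP sham replicate B, PPK sham replicate A or either PPK ADT library (0.0514 to 0.0606). Hadha lost it without PP sham replicate A or replicate B of the other 3 groups (0.0513 to 0.0563).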

How the results depend on the processing

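No member that passed in the reported fit passed with the other sign under any of the 15 alternatives run. Counts of members per direction stayed within 1.5 times of the reported ones, except for those higher after ADT with age in PP. That count was 5, and it was 8 with median-of-ratios scaling and 2 to 5 with 1 library left out. With 1 library left out, the lone library of that group is assumed to vary like the others. With a replicate block, that is with the letters A and B as pairs, the members called were 2 higher and 16 lower for the genotype effect in sham mice, 17 and 12 for that in ADT mice, 5 and 16 for the ADT effect in PP, 15 and 13 for that in PPK, and 19 and 8 for the difference of genotype effects. The letters deviated together only weakly (correlations of -0.0079 to 0.057 between groups). A correlation over all genes cannot settle whether the letters mark pairs, since a pairing that touched few genes would barely move it. Scaling moved the median of all genes by less than 0.1. Some medians of member groups moved more than a typical SE. For PPK against PP in ADT mice, the storage median was -0.059 without PP ADT replicate A and 0.16 without B. The oxidation median there was -0.008 without PP ADT replicate B, so the sign of neither is settled. The synthesis median was -0.31 for ADT in PP with median-of-ratios scaling. It was 0.41 for ADT in PPK without PPK sham replicate B. The depth behind each FPKM is unknown and no counting interval can be given.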
